A study of Homo sapiens with 6 samples.

Results

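Core genes of the Notch pathway were examined in A375 cells depleted of matrix metalloproteinase 9 (MMP9), a secreted gelatinase. The set is defined by symbol and was chosen with earlier results of these data known. It holds 10 genes: the receptors NOTCH1, NOTCH2 and NOTCH3, the ligands JAG1, JAG2 and DLL1, and the target genes HES1, HES4, HEY1 and HEYL. The deposited table lists 18539 genes. It has rows for 9 of the 10 symbols, and all 9 passed the filter on low values. HEYL has no row and is not analysed here. A375 is an established human malignant melanoma line. Both groups were grown in medium with 10% fetal bovine serum, were infected with lentivirus in polybrene at 8 µg/ml and went through 2 weeks of selection in puromycin at 2 µg/ml. The shControl group (3 libraries) is the mock-depleted line, and the shMMP9 group (3 libraries) carries a pLKO.1 hairpin aimed at the MMP9 coding region. A single hairpin was used, and whether the lines are clones or pools is not stated. Nor is it stated whether replicates are separate cultures, so the p-values rest on the spread among these 6 libraries, part of which may be technical.

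Notch receptors are single-pass proteins that are cut by furin on their way to the cell surface and bind Jagged or Delta ligands on a neighbouring cell. Ligand pulling lets an ADAM protease and then gamma-secretase release the intracellular domain, which joins the DNA-binding protein RBPJ and a Mastermind co-activator in the nucleus. HES and HEY genes, which encode basic helix-loop-helix repressors, are the best known targets, and in the pigment lineage Notch signalling is known for maintaining melanoblasts and melanocyte stem cells.

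The promoter windows below were picked because HES1, HEY2 and JAG1 rose in shMMP9 and HES4 fell, and because 3 of them hold a match to the RBPJ motif. The share of the 4 windows with a match was thus set by the choice. The windows are the 250 bases before the RefSeq gene start (GRCh38.p14), written 5′ to 3′ on the gene's strand. Each is printed up to the first base that GENCODE 29 places in an exon, or up to the end of the last motif match where that lies further on. Capitals mark matches to TGGGAA, the core of the RBPJ motif, or to its extended form GTGGGAA, on either strand.
HES1, chr3:194135898-194136144, plus strand: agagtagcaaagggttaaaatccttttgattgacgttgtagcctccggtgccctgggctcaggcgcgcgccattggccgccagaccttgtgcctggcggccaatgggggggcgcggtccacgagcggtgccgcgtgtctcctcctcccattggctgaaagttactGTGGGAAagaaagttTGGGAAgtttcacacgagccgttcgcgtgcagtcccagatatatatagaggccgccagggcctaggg
HES4, chr1:1000168-1000347, minus strand: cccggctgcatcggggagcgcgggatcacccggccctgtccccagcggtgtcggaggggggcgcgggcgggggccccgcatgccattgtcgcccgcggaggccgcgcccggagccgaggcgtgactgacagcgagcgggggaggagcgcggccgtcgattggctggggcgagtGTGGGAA
HEY2, chr6:125749382-125749579, plus strand: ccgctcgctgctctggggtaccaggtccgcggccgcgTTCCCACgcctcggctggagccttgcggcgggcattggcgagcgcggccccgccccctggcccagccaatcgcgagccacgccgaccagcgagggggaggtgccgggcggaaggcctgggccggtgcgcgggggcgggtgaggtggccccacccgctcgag
JAG1, chr20:10674000-10674249, minus strand: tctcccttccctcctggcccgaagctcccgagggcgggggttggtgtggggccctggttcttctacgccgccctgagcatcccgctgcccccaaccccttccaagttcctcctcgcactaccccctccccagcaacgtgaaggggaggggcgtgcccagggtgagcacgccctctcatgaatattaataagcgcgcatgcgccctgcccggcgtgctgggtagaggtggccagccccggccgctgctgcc
In GENCODE 29, 75 bases of the whole HES4 window, 52 of the HEY2 window and 3 of the HES1 window lie in exons, because that annotation starts some transcripts upstream of the RefSeq start. No base of the JAG1 window does. Of the printed bases, 5 of HES4 lie in an exon, all of them within its GTGGGAA match, and none of HES1 or HEY2 does.

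HES1 held GTGGGAA 85 to 79 bases before the start and a second core, TGGGAA, 70 to 65 bases before it on the same strand. HES4 held a single GTGGGAA, 77 to 71 bases before the start. Its distance from the RefSeq start was nearly that of the first match of HES1, and its orientation was the same. HES5, which has no row in the table, held one too, at 81 to 75 bases, and a second on the opposite strand. HEYL held GTGGGAA on the opposite strand 178 to 172 bases before the start and a lone core at 99 to 94 bases. HEY2 held 1 match on the opposite strand, 213 to 207 bases before the start. JAG1, NOTCH1, NOTCH2, NOTCH3 and JAG2 had no match to either form. Neither did HES2 and HES7, which fell in shMMP9, and HES6, which rose. GTGGGAA occurred on either strand in 5.43% of 35114 RefSeq promoter windows of this length, and TGGGAA, which every GTGGGAA contains, in 20.8%. CACNAG, the N-box bound by HES proteins, was found 3 times in the HES1 window and occurred in 32.0% of all windows. Entries were found for 8 of the 10 symbols; DLL1 and HEY1 had none. These matches are descriptions of the sequence and show neither binding nor use of a site.

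**Figure D1:**
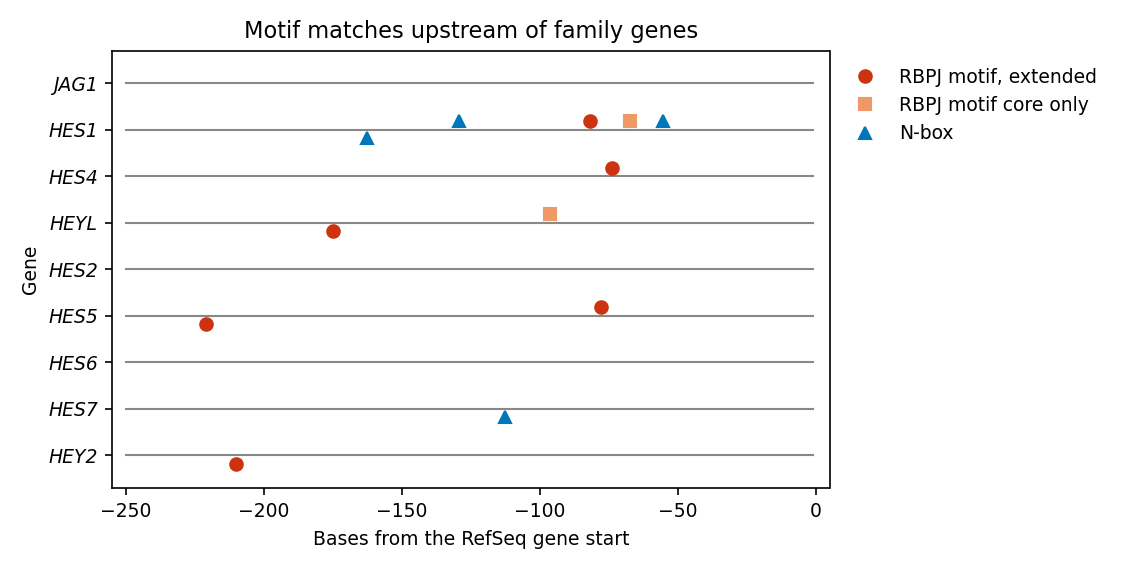
Matches to the extended RBPJ motif, to its core alone and to the N-box in the 250 bases before the RefSeq start of JAG1 and of HES and HEY genes; symbols above a line are on the gene's strand and symbols below it on the opposite strand. HES1, HES5 and HES4 each show an extended match between 85 and 71 bases before the start, and JAG1, HES2 and HES6 show no match.

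In shMMP9 cells the ligand gene JAG1 and the target genes HES1 and HEY1 rose, while the target gene HES4 fell. JAG1 stood at 2.74 times, HES1 at 3.97 times and HEY1 at 3.69 times its shControl level, and HES4 at 0.161 times. NOTCH2, NOTCH1 and the weakly expressed ligand gene DLL1 also rose, the NOTCH1 call resting on single libraries, and NOTCH3 and JAG2 did not pass the test. Levels are gene counts that the authors scaled to a common upper quartile, called scaled counts here. Differences are shMMP9 minus shControl in log2(scaled count + 1), tested with limma on all 17194 genes that passed the filter, with Benjamini-Hochberg adjustment and a threshold of 0.05. By that test 6 of 9 members rose and 1 fell, at a median difference of 0.24, against a median of -0.05 over all genes tested. DLL1, counted among the 6, could enter the test only through shMMP9, the group in which it is higher, and without it 5 of 8 members rose and 1 fell. Of all genes tested, 57.5% passed, 25.0% upward and 32.5% downward, so that passing the test is common here. The excess of falling genes depends on the scaling: 4304 genes rose and 5584 fell with the authors' scaling, 4949 and 4946 with median-of-ratios scaling, and 4988 and 4898 with total-read scaling. A log2 difference of 1 or more was reached by 3 members upward and 1 downward, against 8.17% of all genes tested, 3.22% upward and 4.96% downward. Library values of the 2 groups did not overlap for 7 members, 5 higher and 2 lower in shMMP9, against 62.7% of all genes tested, 27.6% higher and 35.1% lower. The 5 members without overlap that are higher in shMMP9, and the median of 0.24, include DLL1. Because the set was chosen with earlier results of these data known, these contrasts only describe the members.

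**Figure D2:**
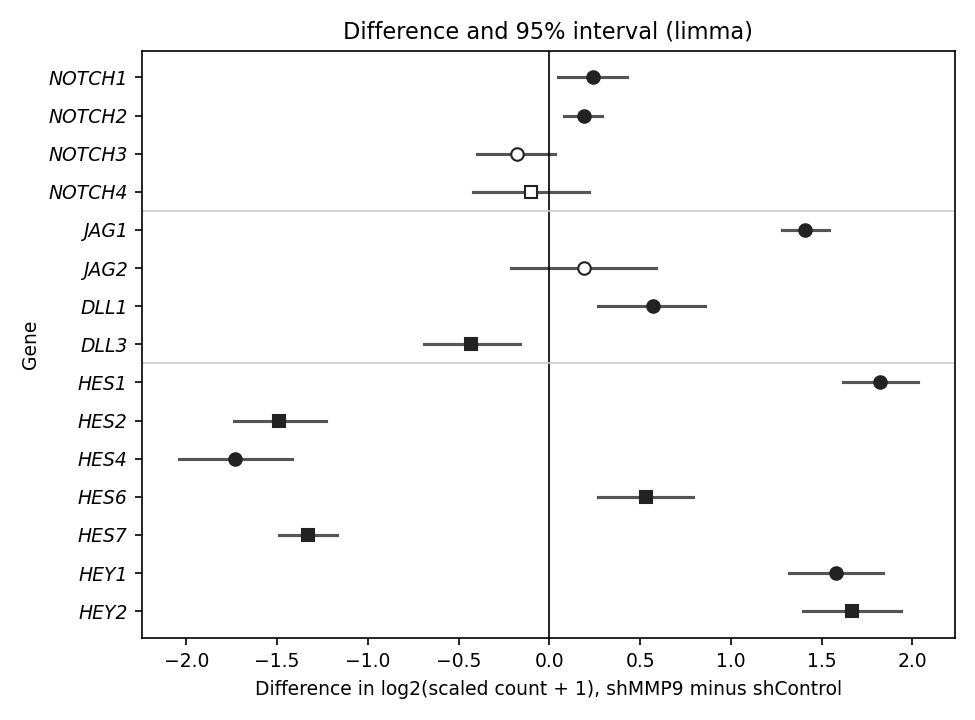
Difference in log2(scaled count + 1), shMMP9 minus shControl, with the 95% interval from limma; circles are the 9 measured members, squares are other genes of the same families, and open symbols did not pass the test. JAG1, HES1, HEY1 and HEY2 lie above 1, HES2, HES4 and HES7 lie below -1, and the receptors lie between -0.18 and 0.24.

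MMP9 itself stood at 26.1, 24.3 and 28.7 in the shControl libraries and at 16.2, 14.6 and 17.1 in the shMMP9 libraries, a log2 difference of -0.69 (SE 0.0847, adjusted p = 1.25e-05, limma). The libraries held 21854123 to 28005552 estimated reads, of which genes with an MT- symbol took 1.64 to 1.79% in shControl and 0.62 to 0.71% in shMMP9. Of 10 melanocyte lineage markers 8 were listed, of which MLANA and TYRP1 stayed below a scaled count of 1 in every library, and TYR and DCT had no row, so the pigment cell label rests here on the other listed markers. The summed level of all 8 listed markers was 521 to 555 in shControl and 1157 to 1230 in shMMP9. Among markers of other cell types, the sum over the listed genes was 55.9 to 64.9 against 22.5 to 25.9 for 7 of 9 endothelial markers and 58.1 to 61.4 against 27.7 to 30.6 for 9 of 9 fibroblast markers. It was 94.1 to 103 against 139 to 150 for 5 of 9 keratinocyte markers and 115 to 136 against 98.9 to 102 for 4 of 9 leukocyte markers. The sums do not stand for whole lists. Of 6 tested melanocyte markers 3 rose and 2 fell, and of 6 endothelial markers 2 and 2. Of 7 fibroblast markers 1 rose and 6 fell, of 4 keratinocyte markers 2 and 2, and of 4 leukocyte markers 1 and 1. Over all genes tested, 25.0% rose and 32.5% fell, so calls among markers are common too. POSTN of fibroblasts and CDH5 of endothelium could enter the test only through the group in which they are higher. PTPRC and CD3E of leukocytes, CLDN5 and EMCN of endothelium, and TP63 and KRT1 of keratinocytes had no row. The part of the mitochondrial share and of these marker lists in the results below was not tested. In a bulk culture, fewer cells expressing a gene and less RNA of it per cell cannot be told apart.

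Among the receptors, NOTCH2 (chr1:119911553-120069626, minus strand, GENCODE 29, GRCh38) gave the most reads. Its scaled counts were 216, 219 and 237 in shControl and 258, 255 and 252 in shMMP9. All shMMP9 libraries lay above all shControl libraries, by a small margin. The means were 224 ± 11.5 and 255 ± 3.29 (SD, n = 3), and the log2 difference was 0.19 (SE 0.049, adjusted p = 0.00539, limma). NOTCH2 shares much of its sequence with NOTCH2NLA, a partial copy whose row stood at 136 ± 14.2 and 129 ± 2.95 (SD, n = 3) and did not pass (adjusted p = 0.439, limma). How reads were divided between the copies is not given in the sources used here, so the NOTCH2 value is uncertain.

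NOTCH1 (chr9:136494433-136545786, minus strand), the receptor best known from leukaemia, stood at 45.0, 54.9 and 58.2 in shControl and at 63.2, 57.0 and 66.3 in shMMP9. The groups overlapped, since shMMP9 replicate 2 lay below shControl replicate 3. The log2 difference was 0.24 (SE 0.086, adjusted p = 0.0288, limma). Without shControl replicate 1 it was 0.13 (adjusted p = 0.084, limma), and the call also ended without shMMP9 replicate 1 (adjusted p = 0.0904, limma) or shMMP9 replicate 3 (adjusted p = 0.118, limma).

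NOTCH3 (chr19:15159038-15200981, minus strand), the receptor of vascular smooth muscle, stood at 9.76, 11.1 and 10.1 in shControl and at 9.30, 8.05 and 9.53 in shMMP9. The shMMP9 libraries all sat under the lowest shControl library, yet the log2 difference of -0.18 (95% interval -0.4 to 0.03) did not pass (adjusted p = 0.134, limma). NOTCH4, the remaining receptor of the family and no member of the set, stood at 2.08 ± 0.23 and 1.89 ± 0.503 (SD, n = 3) and did not pass either (adjusted p = 0.574, limma).

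Set per kilobase of exonic length, so that genes can be compared, NOTCH2 made up 69.7, 66.1 and 67.3% of the summed NOTCH1 to NOTCH4 level in shControl and 67.8, 69.7 and 66.5% in shMMP9. NOTCH1 made up 25.7 ± 1.85% and 26.8 ± 1.56% (SD, n = 3). For both genes the groups overlapped. NOTCH3 took 5.57 ± 0.432% in shControl and 4.27 ± 0.294% in shMMP9 (SD, n = 3), without overlap. A two-sided exact permutation test of 3 libraries against 3 cannot go below 0.10, which is the p of this NOTCH3 share. Its adjusted p = 0.131 was taken over 21 quantities, namely shares and ratios within a library and summed levels (exact permutation).

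**Figure D3:**
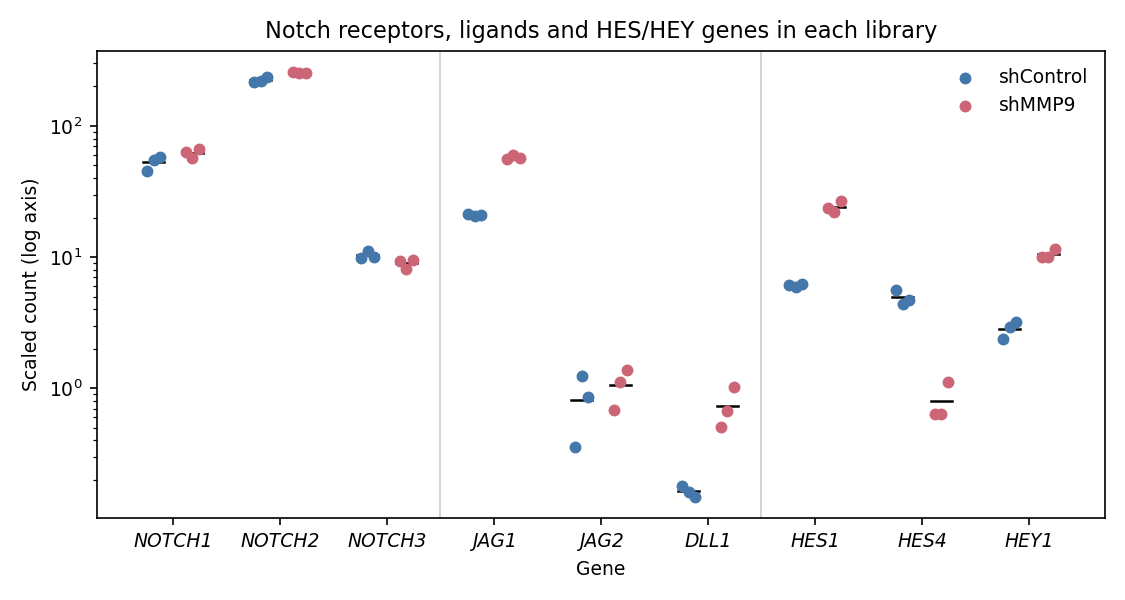
Scaled count of each member in each of the 3 shControl and 3 shMMP9 libraries on a log axis; points are libraries and black lines are group means. JAG1, HES1 and HEY1 are higher and HES4 is lower in all shMMP9 libraries, and the JAG2 libraries are mixed.

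Among the ligands, JAG1 (chr20:10637684-10673999, minus strand), which encodes a Jagged protein required in blood vessel, liver and inner ear development, changed most clearly. Its scaled counts were 21.2, 20.6 and 21.1 in shControl and 55.5, 59.7 and 56.9 in shMMP9. The groups were far apart, and neither group spread by more than 0.05 (SD, n = 3) on the log2 scale. The rise of JAG1 was 1.41 on the log2 scale (SE 0.0588, 95% interval 1.28 to 1.54, adjusted p = 2.91e-10, limma). An antisense gene, AL050403.2, overlaps JAG1 exons in GENCODE 29 and has no row. The strand setting of the counting is not given in the sources used here, so reads of the 2 genes may not have been told apart.

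JAG2 (chr14:105140981-105168824, minus strand), the other Jagged ligand, was near the limit of detection. It stood at 0.356, 1.23 and 0.859 in shControl, from 10, 38 and 23 estimated reads, and at 0.679, 1.12 and 1.37 in shMMP9, from 20, 28 and 37. The groups overlapped throughout, and shControl replicate 1 was the lowest of the 6 libraries. The log2 difference was 0.19 (95% interval -0.21 to 0.59, adjusted p = 0.39, limma) and was -0.002 without shControl replicate 1 (adjusted p = 0.993, limma). Its exons overlap those of AL512356.1 on the same strand, which has no row.

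DLL1 (chr6:170282206-170306565, minus strand), a Delta ligand of neural and muscle progenitors, was weaker still in shControl, at 0.178, 0.162 and 0.149, from 5, 5 and 4 estimated reads. In shMMP9 it stood at 0.504, 0.674 and 1.03, from 15, 17 and 28 reads. All shMMP9 libraries were above all shControl libraries. DLL1 reached the filter's level of 10 reads in no shControl library and in all 3 shMMP9 libraries, so it entered the test only through the group in which it is higher. The log2 difference was 0.57 (SE 0.138, adjusted p = 0.00317, limma), and it was 0.18 with a pseudocount of 4, 1.22 with one of 0.25 and 1.99 with limma-voom on estimated reads.

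DLL3, a Delta protein known to dampen signalling from within the cell and no member of the set, fell from 8.80 ± 0.68 to 6.34 ± 1.08 (SD, n = 3; log2 difference -0.43, adjusted p = 0.00877, limma). DLL4, the Delta ligand of sprouting endothelium, did not pass the filter, at 0.107 to 0.476 over the 6 libraries. Per kilobase, JAG1 made up 37.5, 38.9 and 39.4% of the summed level of JAG1, JAG2, DLL1, DLL3 and DLL4 in shControl and 65.2, 71.6 and 67.7% in shMMP9. DLL3 made up 60.3, 56.1 and 56.2% in shControl and 31.4, 23.0 and 25.7% in shMMP9. In shControl DLL3 thus had the larger share in all 3 libraries, and in shMMP9 JAG1 did. With the longest coding transcript as the length in place of all exons, the JAG1 share was 45.6, 47.1 and 47.5% in shControl and 72.4, 77.9 and 74.6% in shMMP9. The DLL3 share was then 52.5, 48.6 and 48.6% in shControl and 25.0, 17.9 and 20.4% in shMMP9. In shControl replicates 2 and 3 the shares of these ligands were thus close. The summed ligand level per kilobase, with the authors' scaling, went from 5.84 ± 0.206 to 9.05 ± 0.0906 (SD, n = 3). For both shares and the sum the exact permutation p was 0.1, the smallest possible with 3 against 3.

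HES1 (chr3:194136145-194138732, plus strand), a repressor that holds progenitor cells undifferentiated, stood at 6.16, 5.88 and 6.27 in shControl, from 173, 181 and 168 estimated reads. In shMMP9 it stood at 23.6, 22.1 and 26.9, from 704, 558 and 729. All shMMP9 libraries were well above all shControl libraries, with shMMP9 replicate 3 the highest. HES1 rose by 1.82 on the log2 scale (SE 0.0937, 95% interval 1.62 to 2.03, adjusted p = 2.43e-09, limma).

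HEY1 (chr8:79764010-79767863, minus strand), a related repressor known from blood vessel and heart development, stood at 2.39, 2.92 and 3.21 in shControl and at 10.0, 9.95 and 11.5 in shMMP9. All shMMP9 libraries were above all shControl libraries, and the spread within the groups was 0.16 and 0.11 (SD, n = 3) on the log2 scale. HEY1 rose by 1.58 on the log2 scale (SE 0.121, 95% interval 1.32 to 1.84, adjusted p = 1.26e-07, limma).

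HES4 (chr1:998962-1000172, minus strand), a close relative of HES1, went the other way. It stood at 5.63, 4.42 and 4.74 in shControl, from 158, 136 and 127 estimated reads, and at 0.638, 0.634 and 1.11 in shMMP9, from 19, 16 and 30. No shMMP9 library came near the shControl range. The log2 difference was -1.73 (SE 0.143, 95% interval -2.04 to -1.42, adjusted p = 2.83e-07, limma). With so few reads left, its size depends on the pseudocount: it was -2.34 with one of 0.25, -0.90 with one of 4 and -2.65 with limma-voom on estimated reads.

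A ratio of genes within a library does not depend on the scaling between libraries. The ratio of HES1 to HES4 per kilobase was 0.594, 0.722 and 0.717 in shControl and 20.1, 18.9 and 13.2 in shMMP9. HES4 was the higher of the pair in each shControl library and HES1 in each shMMP9 library, and the mean ratio was 25.7 times larger in shMMP9 (exact permutation p = 0.1, the smallest possible). HES1 and HES4 hold the extended RBPJ match shown above at similar positions in their promoter windows.

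Other HES and HEY genes also split by direction. They are no members of the set, and apart from HES7, which the rule for named genes takes, they were picked after their values were seen. HES7, a component of the somite segmentation clock, stood at 43.3, 45.6 and 43.0 in shControl and 15.3, 17.8 and 17.5 in shMMP9 (log2 difference -1.33, adjusted p = 4.07e-09, limma). HES2 fell from 14.2 ± 0.172 to 4.47 ± 0.83 (SD, n = 3; log2 difference -1.49, adjusted p = 1.94e-07, limma). HES6, which opposes HES1 in neurogenesis, rose from 4.59 ± 0.572 to 7.06 ± 0.671 (SD, n = 3; log2 difference 0.53, adjusted p = 0.00199, limma). HEY2, a partner of HEY1 in the heart and arteries, rose from 1.03 ± 0.124 to 5.48 ± 0.515 (SD, n = 3; log2 difference 1.67, adjusted p = 9.82e-08, limma), with 0.91 at a pseudocount of 4. Together with the 3 measured target genes of the set, HES1, HES6, HEY1 and HEY2 rose, and HES2, HES4 and HES7 fell. HES3 and HES5 have no row and are not analysed here.

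The make-up of HES and HEY transcripts also differed between the groups. Per kilobase, HES7 made up 63.5 ± 1.11% of the summed level of these 7 genes in shControl and 29.2 ± 2.13% in shMMP9, while HES1 made up 8.00 ± 0.387% and 37.8 ± 1.96% (SD, n = 3). HEY1 took 2.37 ± 0.361% and 10.4 ± 0.205%, and HES4 took 11.9 ± 1.59% and 2.26 ± 0.596% (SD, n = 3). In no library of shControl was HES1 the larger of HES1 and HES7, and in every shMMP9 library it was. The sum itself was 37.0 ± 0.578 and 31.0 ± 2.3 scaled counts per kilobase (SD, n = 3), without overlap (exact permutation p = 0.1, the smallest possible). With the longest coding transcript as the length it was 42.2 to 43.5 in shControl and 36.2 to 41.6 in shMMP9. Unlike a share, a sum depends on the scaling between libraries, and no other scaling was tried for it.

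**Figure D4:**
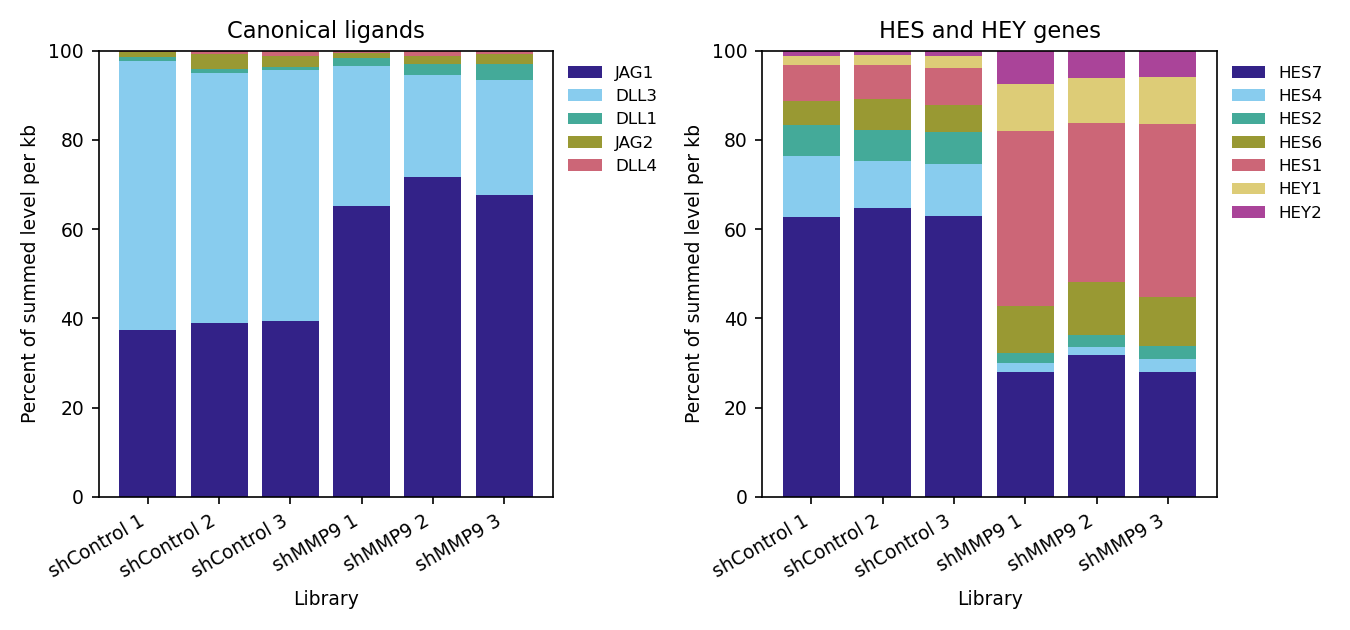
Share of each gene in the summed level per kilobase of the canonical ligands (left) and of 7 HES and HEY genes (right), in percent, for each library. JAG1 goes from 37.5 to 39.4% of the ligands in shControl to 65.2 to 71.6% in shMMP9, and HES7 gives way to HES1 as the largest share of the HES and HEY genes.

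Ordered by scaled count per kilobase, the members in shControl ran NOTCH2 (13.3 ± 0.683), NOTCH1 (5.08 ± 0.662), HES4 (4.41 ± 0.561), HES1 (2.96 ± 0.0979), JAG1 (2.25 ± 0.0344), NOTCH3 (1.10 ± 0.0732), HEY1 (0.879 ± 0.129), JAG2 (0.128 ± 0.0689) and DLL1 (0.0506 ± 0.00447; SD, n = 3). Only NOTCH1 and HES4 overlapped among neighbours in this order. In shMMP9 NOTCH2 stayed first at 15.2 ± 0.196, HES1 came next at 11.8 ± 1.19, and JAG1 followed at 6.17 ± 0.23 beside NOTCH1 at 5.99 ± 0.458 (SD, n = 3). HEY1 came next at 3.24 ± 0.27, then NOTCH3 at 0.954 ± 0.0849 and HES4 at 0.710 ± 0.244, with DLL1 at 0.229 ± 0.084 and JAG2 at 0.165 ± 0.0545 last (SD, n = 3). Here the ranges of JAG1 and NOTCH1, of NOTCH3 and HES4, and of DLL1 and JAG2 overlapped. With the longest coding transcript as the length, NOTCH3 and HEY1 changed places in shControl, and the order in shMMP9 was the same.

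Of 96 further genes of the pathway in 7 lists, 90 were listed and 88 tested, of which 36 rose, 32 fell and 20 did not pass, at a median difference of 0.09. The shares are read against the 57.5% of all genes that passed, and none of the lists was given a test of its own. The lists were written with earlier results of these data known.

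Of the 9 genes of receptor cleavage 5 rose and 3 fell. FURIN, the convertase that matures the receptors, rose from 135 ± 13 to 252 ± 6.61 (SD, n = 3; log2 difference 0.90, adjusted p = 6.07e-08, limma). ADAM10, the protease of ligand-dependent cleavage, rose by 0.50 (adjusted p = 1.54e-06, limma). Of the gamma-secretase genes, PSEN2 rose by 0.39 and APH1B had a log2 difference of -0.57. With median-of-ratios or total-read scaling, 6 genes of this list rose and 1 fell.

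Of 11 genes of receptor glycosylation 6 rose and 3 fell. These enzymes add the sugars that tune ligand binding. POGLUT1, which adds O-glucose, and XXYLT1, which extends it with xylose, rose by 0.46 and 0.52. GXYLT1 and GXYLT2, which add the first xylose, had log2 differences of -0.46 and -0.87 (adjusted p = 4.59e-05 and 5.1e-07, limma). KDELC1, an O-glucosyltransferase gene on chromosome 13, rose by 0.27. The 321 tested genes of that chromosome had a median difference of 0.19. The part of the chromosome in the KDELC1 value was not tested.

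In the nucleus, 11 of 25 genes of the transcription complex and its co-factors rose and 8 fell, and with median-of-ratios or total-read scaling 15 rose and 5 fell. RBPJ, the DNA-binding partner of all Notch receptors, stood at 146, 123 and 134 in shControl and at 223, 233 and 212 in shMMP9 (log2 difference 0.72, adjusted p = 4.05e-07, limma). The groups did not overlap. MAML3, a Mastermind co-activator, rose from 16.9 ± 0.806 to 37.4 ± 0.394 (SD, n = 3; log2 difference 1.10, adjusted p = 1.11e-08, limma). EP300, the acetyltransferase that Mastermind recruits, rose by 0.81, and TLE3, a Groucho co-repressor used by HES proteins, rose by 1.02. The relatives of TLE3 in the list were split: TLE4 rose by 0.31, and TLE2 did not pass (adjusted p = 0.307, limma). TLE1 and AES had log2 differences of -0.64 and -0.39 (adjusted p = 6.57e-06 and 9.82e-06, limma). CDK8, a kinase that marks the Notch intracellular domain for turnover, lies on chromosome 13, whose tested genes had a median difference of 0.19. Its log2 difference of 0.17 did not pass (adjusted p = 0.0745, limma), and the part of the chromosome in it was not tested.

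Ubiquitin ligases and endocytic regulators of ligands and receptors had 6 rising and 8 falling of 21. With median-of-ratios scaling 7 rose and 6 fell, and with total-read scaling 7 rose and 5 fell. MIB1, the ligase that drives ligand endocytosis, fell from 69.1 ± 5.1 to 40.0 ± 0.704 (SD, n = 3; log2 difference -0.77, adjusted p = 1.71e-07, limma), and NEDD4L, a ligase of membrane proteins, fell from 227 ± 7.47 to 117 ± 5.58 (SD, n = 3; log2 difference -0.95, adjusted p = 3.37e-09, limma). Both lie on chromosome 18, whose 259 tested genes had a median difference of -0.42, and the part of the chromosome in these values was not tested. None of the members lies on chromosome 13 or 18. DTX4, a Deltex ligase, had a log2 difference of -1.36, or -0.87 with a pseudocount of 4, and SEL1L, of the endoplasmic reticulum degradation machinery, rose by 0.72.

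Of 6 tested non-canonical and soluble ligands 1 rose and 4 fell, and with median-of-ratios or total-read scaling 1 rose and 3 fell. NOV, a matricellular protein reported to bind Notch, had a log2 difference of -1.33 (adjusted p = 8.28e-08, limma), DLK2, which lacks the receptor-binding domain of canonical ligands, -0.58 (-0.35 with a pseudocount of 4) and EGFL7, a secreted vascular factor, -0.47. CNTN1, a contactin of neural cells, rose by 0.29, and this call ended without shMMP9 replicate 2 (log2 difference 0.24, adjusted p = 0.0646, limma). In the list of other HES and HEY genes and commonly cited targets, 7 of 14 rose and 5 fell. ID1, ID2 and ID4, inhibitors of basic helix-loop-helix factors that also respond to BMP signals, rose by 1.14, 1.75 and 2.18. The values of ID2 and ID4, whose shControl means were 0.757 and 0.493, were 0.91 and 1.11 with a pseudocount of 4 and 2.72 and 3.60 with limma-voom on estimated reads. BCL2, an anti-apoptotic gene, had a log2 difference of -0.40 (adjusted p = 0.0133, limma), with an adjusted p = 0.0593 (limma) without shMMP9 replicate 1. It lies on chromosome 18, whose tested genes had a median difference of -0.42. The part of the chromosome in the BCL2 value was not tested.

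**Figure D5:**
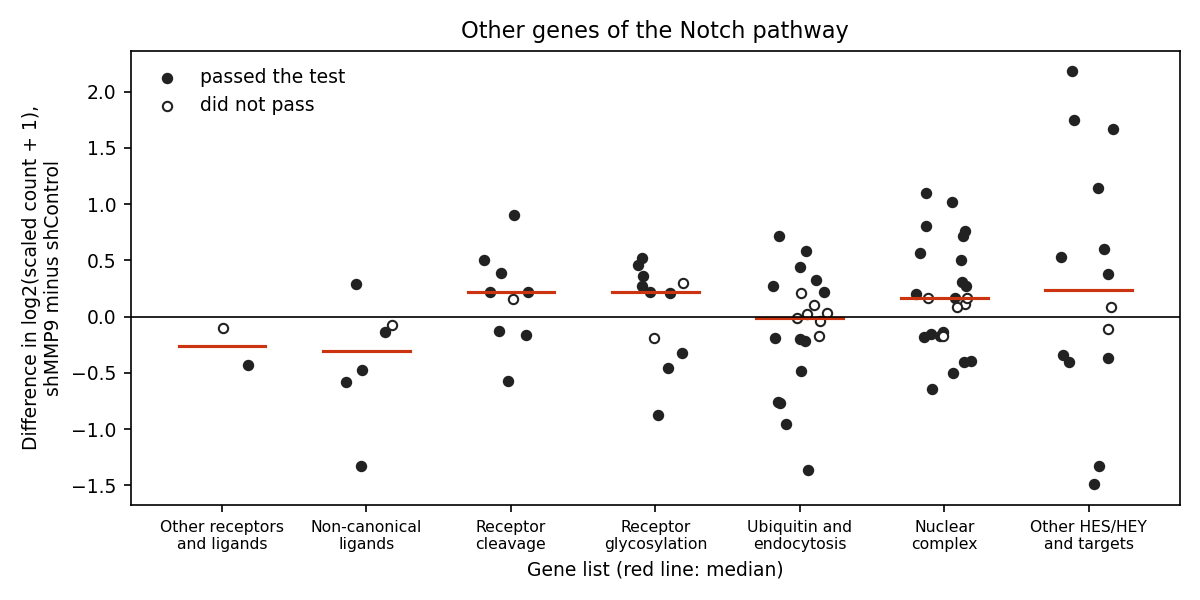
Difference in log2(scaled count + 1), shMMP9 minus shControl, of each tested gene in 7 lists of other Notch pathway genes; filled points passed the test and red lines are list medians. Every list but the first, in which no gene passed upward, holds genes that passed in both directions, and the medians lie between -0.30 and 0.23.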

How the data were processed

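Total RNA of 6 libraries, 3 shControl and 3 shMMP9, was sequenced, and the labels gave each library's group and replicate number. STAR 2.6.1d, Partek and hg38 are named in the submitters' processing notes. The sources used here do not say how reads were counted, on which annotation and strand, or how genes were filtered. The authors deposited log2 values: on the linear scale minus 1, each library's 75th percentile was 45.4, and the smallest value was taken as 1 read. Reads estimated in this way were whole within 0.01 in 64.6 to 67.7% of values, so they remain estimates, and count models were not used. A gene was kept with the equivalent of 10 reads at median library depth in at least 3 libraries and 15 over all (17194 kept, 1345 removed).

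limma 3.58.1 (R 4.3.3, variance trend) was fitted to the deposited values, without a replicate block. On simulated data for this comparison (17194 genes, dispersion 0.01) it recovered 87.5% of 80 planted 1.5-fold changes and 100% of 54 planted 2-fold changes. Far fewer genes were changed there than the 57.5% that passed in the data. The rates hold only for the genes in which changes were planted and for the dispersion of 0.01 used there. No rate is given for weakly expressed genes such as JAG2, DLL1, HES4 and HEY2, so the rates cannot be applied to them. On estimated reads, libraries of the same group differed by a chi-square of 2.51 to 14.15 per gene and were each counted. The pairs with shControl replicate 1 gave 14.15 and 9.72, and the other pairs 2.51 to 4.74.

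The members and lists were chosen with earlier results of these data known. Named were all members, MMP9, up to 4 genes per list by smallest adjusted p, and list genes on chromosomes 13 and 18. The relatives of TLE3 were named outside this rule. Positions and exonic lengths came from GENCODE 29 (GRCh38), and symbols of 99.8% of tested genes matched a chromosome. Promoters came from RefSeq. Alternatives were the replicate block, each library left out, other scalings, filters and pseudocounts, limma-voom, no variance trend and a threshold of 0.01. Figures were drawn with matplotlib 3.10.9.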

Additional observations from a re-analysis of the deposited data

How the results depend on the processing

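MMP9 kept its direction and its call under all 16, at -0.75 to -0.61. So did NOTCH2 (0.16 to 0.25), JAG1 (1.30 to 1.47), HES1 (1.48 to 1.98) and HEY1 (1.08 to 1.89) under 16, and HES4 (-2.65 to -0.90) under the 15 in which it was tested. DLL1 (0.18 to 1.99) was past the threshold in 15 too, but it passed the filter only through the group in which it is higher, so this says nothing about its stability. NOTCH1 lost its call under 5: beside the libraries given above, without a variance trend (adjusted p = 0.0993, limma) and at the threshold of 0.01. Of 648 values for 41 single genes, 634 kept direction and side of the threshold. JAG2 ranged from -0.002 (without shControl replicate 1, a change of sign) to 0.36 with a library left out, and NOTCH4 from -0.21 to 0.04 (without shMMP9 replicate 3, likewise), and neither passed in any setting.

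The number of rising members was 5 or 6. The number falling was 1, and 0 with a minimum mean scaled count of 5, a filter that removes HES4. That filter also left 4 rising genes in the list of other HES and HEY genes. Falling genes numbered 1 for receptor cleavage with median-of-ratios scaling, with total-read scaling and at the threshold of 0.01. They numbered 5 for the nuclear complex with the same 3 settings and without a variance trend. For ubiquitin and endocytic control they numbered 5 with total-read scaling and at 0.01. Non-canonical ligands had 0 rising and 3 falling at 0.01, and 3 falling also with the replicate block and without a variance trend. Leaving out each library in turn gave 1 to 3 falling genes for receptor cleavage, 5 to 8 for ubiquitin and endocytic control, 5 to 9 for the nuclear complex and 0 or 1 rising non-canonical ligands. The cause was not tested.

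Same-numbered libraries of the 2 groups did not deviate together (correlations 0.04, -0.13 and -0.026). With the replicate block 4211 genes rose and 5486 fell, against 4304 and 5584, and 6 members rose and 1 fell, as without it. JAG2 and DLL1 in both groups and HES4 in shMMP9 rest on 4 to 38 reads per library.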
